A study of Mus musculus with 16 samples.

Results

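Border-associated macrophages are the resident macrophages of the meninges, the perivascular spaces and the choroid plexus, set apart from the microglia of the brain tissue by their position. They take up material from blood and cerebrospinal fluid through scavenger and lectin receptors, and they are known for transcripts that microglia hold at low levels. Both cell types carry CD11b, so a selection on that integrin can collect both. The genes followed here are 10 transcripts known from these macrophages, namely Mrc1, Cd163, Lyve1, Stab1, Folr2, Dab2, Pf4, F13a1, Cbr2 and Maf. Their probes were taken by symbol from the array's gene annotation, and the genes are 10 of the 16593 named genes on the array. The genes were chosen with earlier results of these data known. Together they had 13 probes.

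The study profiled brain cells selected on CD11b, labelled microglia, on 16 Illumina arrays to follow SIRT1, an NAD-dependent protein deacetylase, in ageing and in dementia models. The 6 groups were TAU/LysM and TAU with 2 arrays each, and old LysM-Cre/SIRT1F/F (here old LysM-Cre), old SIRT1F/F, young LysM-Cre/SIRT1F/F (here young LysM-Cre) and young SIRT1F/F with 3 arrays each. SIRT1F/F denotes a loxP-flanked Sirt1 allele, which the LysM-Cre groups combine with Cre driven from the myeloid lysozyme locus, so that recombination is limited to cells in which that locus has been active. Of the Tau groups the labels state neither the age nor the Tau construct and promoter, and no floxed allele is named for TAU/LysM. All animals had a mixed BL6 and 129/Sv background. Nothing in the labels says that arrays of a group came from different mice, and the p-values therefore reflect only sample-to-sample spread, of which the technical part is not known.

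Array quality was even: 54.9% to 57.5% of probes were above background on each array, and arrays of a group correlated at 0.984 to 0.994. The Sirt1 probe read 9.48 to 10.21 (log2) over the 16 arrays with both genotypes intermingled, and since its place relative to the loxP sites is not known here, it checks nothing about the deletion. On 5 arrays, 1 of the 2 TAU/LysM, 2 of the 3 old SIRT1F/F and 2 of the 3 young LysM-Cre arrays, Xist or the Y-linked Eif2s3y lay under a level of 7. On every other array both lay above that level. The low transcript was Eif2s3y on TAU/LysM 1 and young LysM-Cre 2, and Xist on old SIRT1F/F 2, old SIRT1F/F 3 and young LysM-Cre 3. Eif2s3y read 5.07 on TAU/LysM 1 and 9.90 on TAU/LysM 2, for example. The arrays of each of these 3 groups were therefore not all repeats of a single RNA sample. Leaving these out keeps 1 array in each of those groups, which is then assumed to vary like the other groups, and 0 of the 10 genes was called in any comparison (limma). Values without them stand beside the results they touch. Markers of homeostatic microglia were above background on every array for all 13 genes measured, so the labelled cell type was present. Levels below are log2 intensities after background correction and quantile normalization, and a level is compared only with the same probe on other arrays.

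The border macrophage transcripts were above background in every group, in cells labelled microglia. The best probe of each of the 10 genes passed the background limit on 16 of 16 arrays. Raw intensity ran from 7072 to 22380 for Mrc1 and from 291 to 502 for Maf, with array medians of 203 to 284. A second Cd163 probe read only 175 to 232 in raw intensity and passed on 5 of 16 arrays, a second Dab2 probe passed on all 16, and the last Dab2 probe passed on 0. Hence 12 of the 13 probes were tested. In such bulk samples, fewer cells of a type and less RNA per cell cannot be told apart.

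**Figure D1:**
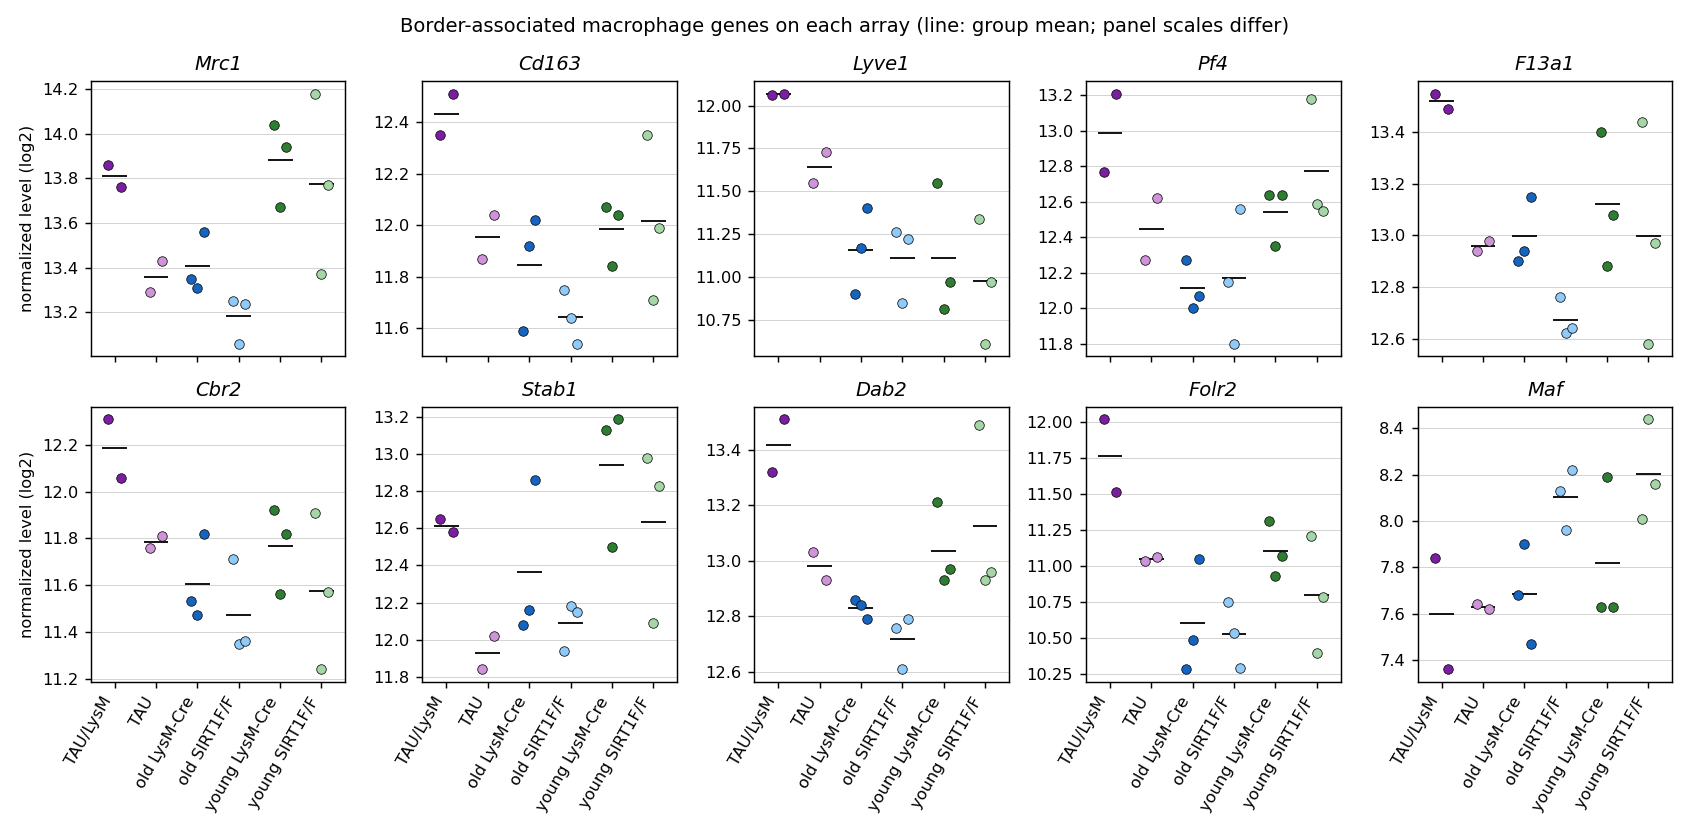
Normalized level (log2) of the best probe of each of the 10 genes on each of the 16 arrays. Points are arrays, lines are group means, and each panel has its own scale. Both TAU/LysM arrays lay above both TAU arrays for every gene but Maf.

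Promoter windows were examined because the genes moved together across arrays, as described further on. RefSeq sequence of the 250 bases before the start (GRCm38.p6) was at hand for 8 of the 10 genes, in 11 windows because F13a1, Dab2 and Folr2 have 2 each. Lyve1 and Maf had none. The letters searched on both strands were TGCTGA, a short site bound by MAF proteins, GAGGAA, a core of sites for the macrophage factor PU.1, TGANTCA, the AP-1 site, and CACGTG, an E-box. TGCTGA was found in 4 of the 11 windows and in 16.1% of all 32841 windows. GAGGAA was found in 7 of the 11 and in 23.3% of all. TGANTCA was found in 1 of the 11 and in 6.8% of all, and CACGTG in 0 of the 11 and in 6.0% of all. A match describes letters and is not a measured binding site. 4 windows are shown, for Mrc1 (chr2:14229164-14229413, plus strand), Stab1 (chr14:31168642-31168891, minus strand), Dab2 (chr15:6299539-6299788, plus strand) and Folr2 (chr7:101845332-101845581, minus strand). Mrc1 is shown because it holds 3 matches to 1 motif, and the other 3 because they hold TGCTGA. Capitals mark the matches on either strand.
Mrc1: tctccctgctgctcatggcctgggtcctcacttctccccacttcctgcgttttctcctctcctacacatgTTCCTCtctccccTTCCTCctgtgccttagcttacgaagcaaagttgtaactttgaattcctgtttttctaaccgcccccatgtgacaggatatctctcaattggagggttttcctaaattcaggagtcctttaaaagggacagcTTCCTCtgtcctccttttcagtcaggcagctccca
Stab1: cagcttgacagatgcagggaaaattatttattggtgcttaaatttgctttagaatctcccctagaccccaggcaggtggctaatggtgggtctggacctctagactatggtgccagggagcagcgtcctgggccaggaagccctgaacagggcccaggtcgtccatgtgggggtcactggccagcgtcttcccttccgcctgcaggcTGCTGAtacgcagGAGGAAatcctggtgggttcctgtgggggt
Dab2: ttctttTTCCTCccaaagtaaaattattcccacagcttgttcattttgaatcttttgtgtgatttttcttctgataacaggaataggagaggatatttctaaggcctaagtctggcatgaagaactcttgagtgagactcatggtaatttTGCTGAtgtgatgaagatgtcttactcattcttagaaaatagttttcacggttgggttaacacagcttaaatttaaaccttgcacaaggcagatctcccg
Folr2: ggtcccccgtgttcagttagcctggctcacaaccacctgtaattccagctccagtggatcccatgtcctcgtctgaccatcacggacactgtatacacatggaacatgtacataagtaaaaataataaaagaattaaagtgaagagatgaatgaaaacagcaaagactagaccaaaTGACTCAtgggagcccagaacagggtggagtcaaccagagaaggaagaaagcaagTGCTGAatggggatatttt
In the Mrc1 window the 3 capital runs are GAGGAA read on the other strand, the nearest beginning 35 bases before the start. In the Stab1 window TGCTGA lies 43 bases before the start, with GAGGAA at 30 bases. In the Dab2 window TGCTGA lies 100 bases before the start, and in the Folr2 window it lies 19 bases before, with the AP-1 match at 74 bases.

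The comparison of TAU/LysM with TAU asks what LysM-Cre does on the Tau background. In 9 of the 10 genes both TAU/LysM arrays lay above both TAU arrays, and Maf was the exception. Among all tested probes 25.9% were arranged that way and 22.8% the opposite way, so such an arrangement of 2 against 2 arrays was common. Positive differences made up 52.3% of all probes. The median difference of the 10 genes was 0.46 (log2), beside 0.01 over all genes tested. None of the 10 was called (limma, Benjamini-Hochberg adjusted p over all 16344 tested probes, threshold 0.05), where 1.48% of probes were. At an unadjusted p under 0.05 there were 6 higher and 0 lower, beside 6.96% of probes higher and 6.23% lower.

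Among the receptors, Stab1 (stabilin-1, a scavenger receptor that clears modified lipoproteins and matrix proteins) read 12.65 and 12.58 in TAU/LysM, against 11.84 and 12.02 in TAU. The difference was 0.69 ± 0.30 (SE; limma adjusted p = 0.347). Folr2, the beta folate receptor held in the membrane by a lipid anchor, read 12.02 and 11.51 in TAU/LysM, against 11.03 and 11.06 in TAU, a difference of 0.72 ± 0.28 (limma adjusted p = 0.278). For both genes the groups did not overlap, and for Folr2 the TAU/LysM arrays were themselves farther apart than the TAU arrays. Mrc1, the mannose receptor CD206, differed by 0.45 ± 0.21, and Cd163, the receptor for haemoglobin bound to haptoglobin, by 0.47 ± 0.19. Lyve1, a hyaluronan receptor also found on lymphatic endothelium, read 12.06 and 12.07 in TAU/LysM, against 11.55 and 11.73 in TAU (difference 0.43 ± 0.26).

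The remaining genes were an endocytic adaptor, secreted proteins, an enzyme and a transcription factor. Dab2, a clathrin adaptor, had the smallest adjusted p of the 10 in this comparison. It read 13.32 and 13.51 in TAU/LysM, against 13.03 and 12.93 in TAU, a difference of 0.43 ± 0.17 (limma adjusted p = 0.276). Its second probe gave 0.55 ± 0.19, the same direction. Under median scaling between arrays 1 probe of the 10 genes, that of Dab2, was called. Pf4, a chemokine shared with platelets, differed by 0.55 ± 0.26. F13a1, the catalytic subunit of coagulation factor XIII, read 13.55 and 13.49 in TAU/LysM, against 12.94 and 12.98 in TAU, a difference of 0.56 ± 0.22. Cbr2, a carbonyl reductase, differed by 0.40 ± 0.21. Maf, the transcription factor c-MAF of the macrophage lineage, read 7.84 and 7.36 in TAU/LysM, against 7.64 and 7.62 in TAU, and differed by -0.03 ± 0.22.

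Markers of other cells differed between these arrays too. Of 7 choroid plexus genes 6 were called lower in TAU/LysM (median -2.10), and their summed intensity was 35184 to 43080 in TAU/LysM, against 54411 to 60444 in TAU. Of 7 oligodendrocyte genes 6 were called lower (median -2.87), with sums of 4154 to 4442 in TAU/LysM, against 26850 to 36177 in TAU. The 13 homeostatic microglia genes had a median of -0.20 with 0 called. Of 6 monocyte genes 1 was called, F10, with 1.04 ± 0.19, and the list's median was 1.03. Of 11 mural and meningeal genes 9 were positive, in the direction of the 10 genes, with a median of 0.35. Among these Igfbp6, a binding protein for insulin-like growth factors, was called at 1.62 ± 0.25 (limma adjusted p = 0.00578), and the list's sums were 13938 to 20294 in TAU/LysM, against 10894 to 14688 in TAU. Of 8 blood endothelial genes 0 was positive (median -0.62) and 0 called, and of 10 neutrophil genes 10 were positive (median 0.69) and 0 called. The part of these cells in the differences of the 10 genes was not tested. Without the arrays low in Xist or Eif2s3y 9 of the 10 genes were again positive, with a median of 0.49. Of the calls among other cells' markers, 1 of 6 choroid plexus and 4 of 6 oligodendrocyte calls were left, and those of F10 and Igfbp6 were lost. Stab1 then differed by 0.66 (limma adjusted p = 0.583), Folr2 by 0.46 (0.687) and Dab2 by 0.53 (0.428).

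TAU/LysM was also set against young and old LysM-Cre, both because its age is unknown and because these groups carry the same Cre. Here the only calls among the 10 genes were made: Lyve1 rose against young LysM-Cre and Folr2 rose against old LysM-Cre. Against young LysM-Cre 1 of the 10 genes was called higher and 0 lower, where 7.27% of probes were called in either direction. Against old LysM-Cre it was likewise 1 higher and 0 lower, where 2.26% of probes were called. The 2 comparisons share the TAU/LysM arrays, and those of TAU/LysM with TAU share them too.

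Lyve1 stood at 12.06 and 12.07 in TAU/LysM, against 11.55, 10.81 and 10.97 in young LysM-Cre. The difference was 0.95 ± 0.23 (SE; 95% interval 0.45 to 1.46; limma adjusted p = 0.0278), or 1.94-fold, with no overlap. The call was lost without TAU/LysM 1 (adjusted p = 0.133), TAU/LysM 2 (0.134), young LysM-Cre 2 (0.074) or young LysM-Cre 3 (0.0843), and the difference was 0.52 (adjusted p = 0.597) without the arrays low in Xist or Eif2s3y. That setting leaves 1 TAU/LysM array and 1 young LysM-Cre array. Against old LysM-Cre, at 10.90, 11.17 and 11.40, the Lyve1 difference was 0.91 ± 0.23 (limma adjusted p = 0.0643), again with no overlap.

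Folr2 stood at 12.02 and 11.51 in TAU/LysM, against 10.28, 10.48 and 11.05 in old LysM-Cre. The difference was 1.16 ± 0.26 (SE; 95% interval 0.61 to 1.71; limma adjusted p = 0.0313), or 2.23-fold. The lowest TAU/LysM array stood above the highest old LysM-Cre array. The call was lost without TAU/LysM 1 (0.90, adjusted p = 0.209), TAU/LysM 2 (1.42, 0.101), old LysM-Cre 1 (0.0952) or old LysM-Cre 2 (0.101), and without the arrays low in Xist or Eif2s3y (0.90, 0.32). Against young LysM-Cre, at 11.31, 10.93 and 11.07, the difference was 0.66 ± 0.26 (limma adjusted p = 0.134).

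The other genes separated into those that stood above both LysM-Cre ages and those that did not. Pf4 read 12.77 and 13.21 in TAU/LysM, against at most 12.27 in old LysM-Cre (mean 12.11 ± 0.14, SD, n = 3) and 12.64, 12.35 and 12.64 in young LysM-Cre. Its differences were 0.88 ± 0.23 against old (limma adjusted p = 0.0694) and 0.45 ± 0.23 against young LysM-Cre (0.264). Dab2 (0.58 against old, adjusted p = 0.068, and 0.38 against young), Cd163 (0.59 and 0.45), Cbr2 (0.58 and 0.42) and F13a1 (0.52 and 0.40) had no overlap with either LysM-Cre age. The second Dab2 probe gave 0.63 ± 0.17 against old and only 0.18 ± 0.17 against young LysM-Cre. Mrc1 and Stab1 were different in arrangement. Mrc1 read 13.86 and 13.76 in TAU/LysM, against 13.35, 13.31 and 13.56 in old LysM-Cre and 14.04, 13.67 and 13.94 in young LysM-Cre. Its differences were 0.40 ± 0.19 against old and -0.07 ± 0.19 against young LysM-Cre. Stab1 differed by 0.25 ± 0.28 from old and by -0.32 ± 0.28 from young LysM-Cre, with overlap in both, and Maf by -0.09 ± 0.20 and -0.22 ± 0.20.

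By count, 9 of the 10 differences were positive against old LysM-Cre (49.6% of all probes) and 7 against young LysM-Cre (46.9%). The groups did not overlap in 8 genes against old and 7 against young LysM-Cre, all with TAU/LysM above, beside 16.1% and 17.2% of probes. The medians were 0.58 and 0.41. At an unadjusted p under 0.05 there were 7 and 5 genes, all higher, beside 8.03% and 10.4% of probes higher and 7.54% and 13.5% lower. In 0 genes did TAU/LysM lie below without overlap, beside 15.9% and 23.1%. Of the 11 mural and meningeal genes 10 were positive against young LysM-Cre, with a median of 0.91. Among them Rgs5 (1.51 ± 0.37), Col3a1 (0.65 ± 0.17), Igfbp6 (1.03 ± 0.23) and Slc47a1 (1.76 ± 0.38) were called higher. Against old LysM-Cre 8 were positive, with a median of 0.13 and 0 called. The list's sums were 13938 to 20294 in TAU/LysM, against 12360 to 16683 in old and 5292 to 10200 in young LysM-Cre. Of choroid plexus, oligodendrocyte, blood endothelial and neutrophil genes 0 was called, and the 10 neutrophil genes had medians of -0.46 against young and -0.92 against old LysM-Cre, with 0 positive. Of the 13 homeostatic microglia genes 7 fell against young and 4 against old LysM-Cre, with Tmem119 at -0.84 ± 0.10 and -0.68 ± 0.10. The homeostatic sum was 212382 to 221045 in TAU/LysM, against 247593 to 261795 in old and 274661 to 285435 in young LysM-Cre. With the low arrays left out these mural and microglial calls were lost and kept their signs, with Tmem119 at -0.84 and -0.66. The part of these other cells in the members' differences was not tested.

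**Figure D2:**
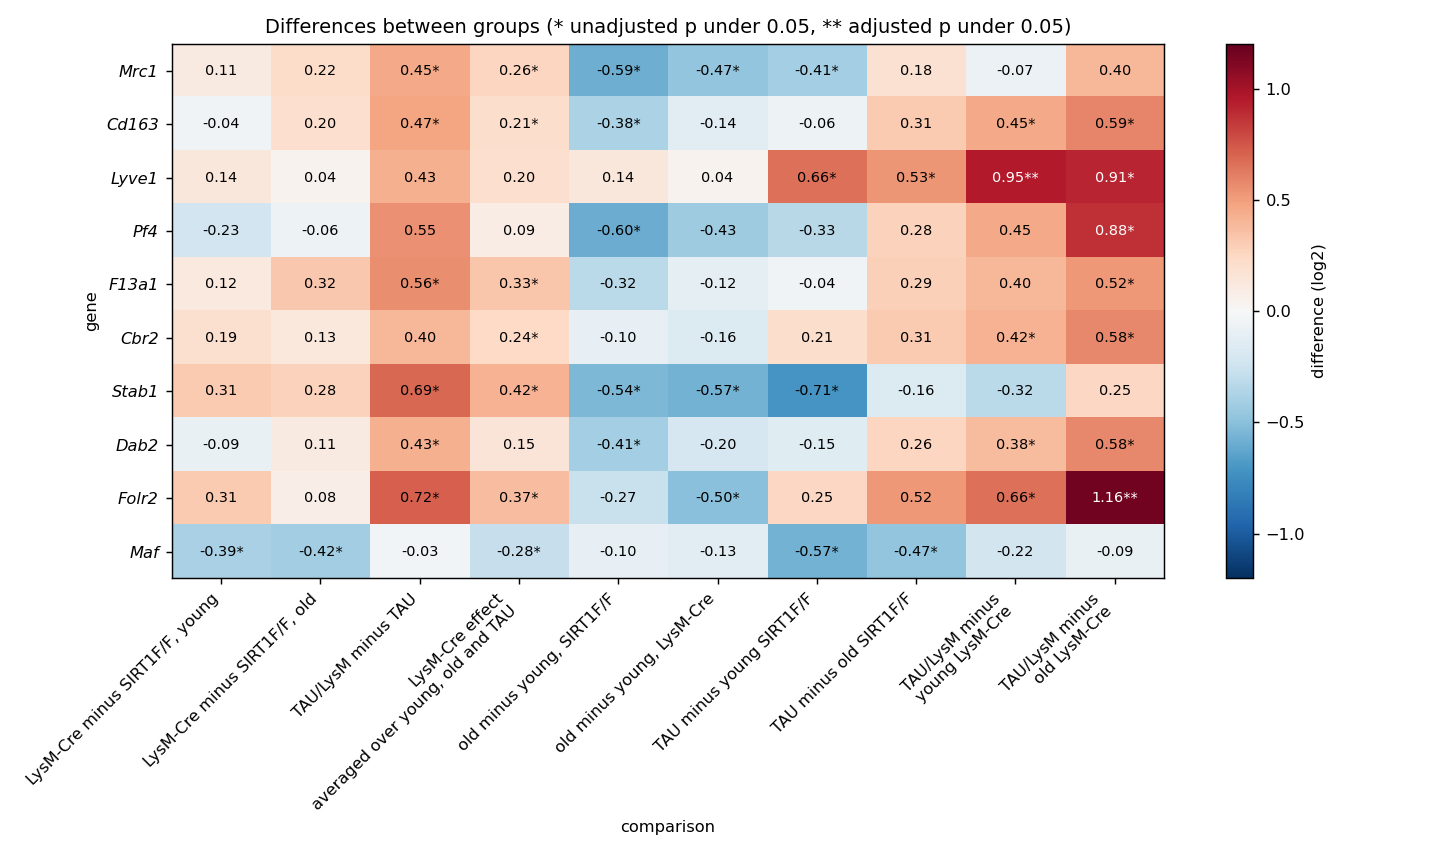
Difference (log2) of each of the 10 genes (rows) in each of 10 comparisons (columns). A single star marks an unadjusted p under 0.05 and a pair of stars an adjusted p under 0.05. Only Lyve1 (0.95) and Folr2 (1.16) carry the pair of stars, both in comparisons of TAU/LysM with a LysM-Cre group.

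LysM-Cre was set against SIRT1F/F among young and among old samples, which asks how the groups with and without Cre differed without Tau. No group without Tau carried Cre alone, so Cre itself and Sirt1 deletion cannot be told apart. The deletion was not measured here. In young samples 0 of the 10 genes was called (0% of all probes), and the smallest adjusted p was 0.626 (limma). The differences were positive in 6 and negative in 4 (49.1% of probes positive), and every gene's groups overlapped, where 5.13% of probes had the LysM-Cre arrays all above and 5.71% all below. The widest differences were 0.31 ± 0.23 for Folr2 and -0.39 ± 0.18 for Maf (limma unadjusted p = 0.0462, adjusted p = 0.626). Maf was the only gene with an unadjusted p under 0.05, where 4.31% of probes were higher and 3.62% lower by that measure. Maf read 7.63, 8.19 and 7.63 in young LysM-Cre, against 8.01, 8.44 and 8.16 in young SIRT1F/F. The tested Dab2 probes differed in sign, at -0.09 ± 0.14 for the best probe and 0.14 ± 0.15 for the second. Without young SIRT1F/F 2 only 3 of the 10 differences were positive. Leaving out the arrays low in Xist or Eif2s3y, which keeps a single young LysM-Cre array, moved the signs the other way. Only Pf4 (-0.13) and Maf (-0.58) were then negative, with Lyve1 at 0.58 and Folr2 at 0.51.

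In old samples 0 of the 10 was called, where 0.0184% of probes were, and the smallest adjusted p was 0.736 (limma). The differences were positive in 8 (48.5% of probes), but in 4 under median scaling and in 5 without the arrays low in Xist or Eif2s3y. Mrc1 and F13a1 had old LysM-Cre above old SIRT1F/F without overlap, beside 6.47% of probes, and Maf had it below, beside 6.06%. F13a1 read 12.90, 12.94 and 13.15 in old LysM-Cre, against 12.76, 12.62 and 12.64 in old SIRT1F/F (0.32 ± 0.18; limma adjusted p = 0.802). Maf read 7.68, 7.90 and 7.47 in old LysM-Cre, against 8.13, 7.96 and 8.22 in old SIRT1F/F (-0.42 ± 0.18; unadjusted p = 0.0346, adjusted p = 0.736), and was the only 1 of the 10 at an unadjusted p under 0.05, where 3.6% of probes were higher and 2.99% lower.

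Averaged over the young, old and Tau pairs, 9 of the 10 genes had a positive LysM-Cre difference (49.3% of probes) and Maf a negative one, and again 0 was called (limma; 1.22% of probes were). At an unadjusted p under 0.05 there were 6 higher and 1 lower, beside 10.3% of probes higher and 9.59% lower. F13a1 came closest, at 0.33 ± 0.11 (limma adjusted p = 0.134), followed by Stab1 at 0.42 ± 0.16 (0.163) and Folr2 at 0.37 ± 0.14 (0.183). Without young SIRT1F/F 1, 2 probes were called. Maf averaged -0.28 ± 0.11 (0.192) and was lower in the Cre group of all 3 pairs by its means, while Pf4 averaged 0.09 ± 0.13. Monocyte genes stood higher in the same average, with 3 of 6 called (F10 at 0.91 ± 0.10) and a list median of 0.84, and oligodendrocyte genes stood lower, with 6 of 7 called and a median of -1.18. Neutrophil genes were positive in 10 of 10, with a median of 0.65, 9 at an unadjusted p under 0.05 and 0 called (smallest limma adjusted p = 0.054). Of 11 mural and meningeal genes 9 were positive, with a median of 0.22 and Igfbp6 called at 0.85 ± 0.13. With the low arrays left out 0 of these marker calls was left. The part of these cells in the average was not tested.

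The LysM-Cre difference itself was compared between backgrounds. As a signed value it was higher in Tau than in young samples for 10 of the 10 genes (53.7% of probes; median 0.40), and in 7 without the arrays low in Xist or Eif2s3y. For Maf this means -0.03 in Tau against -0.39 in young samples, a negative value nearer 0. Over the 10 genes there were 0 called (limma; 0.306% of probes) and 2 at an unadjusted p under 0.05 (3.52% of probes higher and 4.23% lower). Those were Pf4 at 0.77 ± 0.33 (adjusted p = 0.568) and Dab2 at 0.53 ± 0.22 (0.534). The second Dab2 probe gave 0.41 ± 0.24 and was not under that limit (limma unadjusted p = 0.109). The signed value was also higher in Tau than in old samples for 10 of the 10 (54% of probes; median 0.35), with 0 called (0.202%) and 0 at an unadjusted p under 0.05 (3.14% higher and 4.1% lower). In old against young samples 5 of the 10 were positive (49.5% of probes; 1 gene under median scaling), with every adjusted p at 1 and 0 called (0% of probes), and 0 had an unadjusted p under 0.05 (1.21% higher and 1.24% lower). These 3 tests share arrays. A difference in the LysM-Cre effect between backgrounds was not shown for these genes.

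The age comparison set old against young within each genotype. In SIRT1F/F samples 9 of the 10 differences were negative and only Lyve1 was positive. The median was -0.35, beside -0.03 over all genes, and 44.7% of probes were positive. None of the 10 was called (limma; 1.27% of probes were), and 5 were lower at an unadjusted p under 0.05, beside 6.74% of probes higher and 7.94% lower. Mrc1 read 13.25, 13.06 and 13.24 in old SIRT1F/F, against 14.18, 13.37 and 13.77 in young SIRT1F/F, without overlap. Its difference was -0.59 ± 0.17 (95% interval -0.95 to -0.23; limma adjusted p = 0.112), and it ran from -0.79 to -0.38 over the 27 alternatives. It was called only without young SIRT1F/F 2 (-0.79, adjusted p = 0.0297). It was -0.38 (0.223) without young SIRT1F/F 1 and -0.52 (0.644) without the arrays low in Xist or Eif2s3y, 2 of which are old SIRT1F/F. Dab2 was the other gene without overlap, at -0.41 ± 0.14 (adjusted p = 0.175), beside 10.2% of probes with old below young and 7.4% with old above. Pf4 differed by -0.60 ± 0.21, Stab1 by -0.54 ± 0.25 and Cd163 by -0.38 ± 0.15, each with overlapping groups. Without the low arrays 2 of the 10 were positive, Lyve1 at 0.28 and Cbr2 at 0.14, and the median was -0.25.

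In LysM-Cre samples the pattern was alike in sign, again with Lyve1 as the 1 positive gene, and 45% of probes were positive. Lyve1 read 10.90, 11.17 and 11.40 in old LysM-Cre, against 11.55, 10.81 and 10.97 in young LysM-Cre, a difference of 0.04 ± 0.21 with a 95% interval of -0.41 to 0.49. Under median scaling it was negative, so that 0 genes were positive there. The median of the 10 was -0.18, 0 was called (limma; 1.71% of probes were), and 3 were lower at an unadjusted p under 0.05, beside 7.61% of probes higher and 9.75% lower. Mrc1, Pf4 and Dab2 had old below young without overlap, beside 12.5% of probes, and 0 genes had old above, beside 8.6%. Mrc1 differed by -0.47 ± 0.17 (adjusted p = 0.171), Stab1 by -0.57 ± 0.25 (0.255) and Folr2 by -0.50 ± 0.23 (0.283). Under median scaling 4 probes were called, those of Mrc1, Pf4 and both tested ones of Dab2. Leaving out the arrays low in Xist or Eif2s3y keeps a single young LysM-Cre array. Lyve1 was then -0.40 and Maf 0.06, so Lyve1 was no longer the positive gene and the likeness in sign to SIRT1F/F did not hold for it.

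Lists of vessel and meningeal cells ran the other way with age. Blood endothelial genes had medians of 0.77 in SIRT1F/F and 0.83 in LysM-Cre with 0 of 8 called. Of 11 mural and meningeal genes, Igfbp6 and Slc47a1 rose in both genotypes (1.28 ± 0.21 and 2.08 ± 0.34 in SIRT1F/F; 1.37 ± 0.21 and 2.17 ± 0.34 in LysM-Cre). The homeostatic microglia list had medians of -0.04 and -0.08, with 1 of 13 called, Olfml3 in LysM-Cre. Without the arrays low in Xist or Eif2s3y these calls were lost, with Igfbp6 at 1.47 and 1.40. Their part in the age differences was not tested.

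TAU was compared with SIRT1F/F samples of both ages. Here the 10 genes divided. By their means Lyve1, Folr2 (0.25 ± 0.26 and 0.52 ± 0.26) and Cbr2 (0.21 ± 0.19 and 0.31 ± 0.19) stood above young and old SIRT1F/F, Stab1 and Maf stood below both, and the other 5 lay between the ages. Against young SIRT1F/F 0 of the 10 was called (limma; 11.9% of probes were), and 1 gene was higher and 3 lower at an unadjusted p under 0.05 (12.1% and 15.7% of probes). Lyve1 read 11.55 and 11.73 in TAU, against 11.34, 10.61 and 10.97 in young SIRT1F/F, a difference of 0.66 ± 0.23 (limma adjusted p = 0.082). Stab1 read 11.84 and 12.02 in TAU, against 12.98, 12.09 and 12.83 in young SIRT1F/F, a difference of -0.71 ± 0.28 (0.115). Maf read 7.64 and 7.62 in TAU, against 8.01, 8.44 and 8.16 in young SIRT1F/F, a difference of -0.57 ± 0.20 (0.0773). In these 3 genes the groups did not overlap, Lyve1 with TAU above (17.8% of probes) and the other 2 with TAU below (25.9%). Mrc1 differed by -0.41 ± 0.19, and the other 6 genes by -0.33 to 0.25. The number of positive differences was 3 of 10 (44% of probes) and 6 without young SIRT1F/F 1.

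Against old SIRT1F/F 8 of the 10 were positive (46.8% of probes), 6 under median scaling, with a median of 0.28. TAU lay above without overlap in 7 genes (17.4% of probes) and below in 1, Maf (20.9%). None was called (limma; 3.99% of probes were), and 1 was higher and 1 lower at an unadjusted p under 0.05 (8.32% and 8.7% of probes). Those were Lyve1 at 0.53 ± 0.23 (limma adjusted p = 0.271) and Maf at -0.47 ± 0.20 (0.243). Stab1 and Maf were the 2 negative genes, Stab1 at -0.16 ± 0.28. Without the low arrays, which leaves 1 old SIRT1F/F array, 8 were positive with a median of 0.20, Lyve1 at 0.38 (limma adjusted p = 0.831). The TAU arrays carried more choroid plexus RNA than either SIRT1F/F age, with 6 of 7 genes called higher against each (medians 2.20 against young and 1.94 against old). Their sums were 54411 to 60444 in TAU, against 40043 to 41862 in old SIRT1F/F and 34722 to 38336 in young SIRT1F/F. Oligodendrocyte genes were likewise called higher in 6 of 7 against each age (medians 2.42 and 2.50), with sums of 26850 to 36177 in TAU, against 3995 to 6111 in old and 5120 to 8784 in young SIRT1F/F. Against young SIRT1F/F 4 of 8 blood endothelial genes (median 1.17) and 3 of 11 mural and meningeal genes (median 0.59) were called higher. Against old SIRT1F/F 0 of the endothelial genes was called (median 0.35), while of the mural and meningeal genes Rgs5 was higher (1.60 ± 0.37) and Igfbp6 (-1.46 ± 0.23) and Slc47a1 (-1.53 ± 0.38) lower. Neutrophil genes were positive in 0 of 10 against either age, with medians of -0.46 and -0.92 and 0 called. Of the homeostatic microglia genes, 3 were called lower against young and old: Tmem119 (-0.62 and -0.59), Sall1 (-0.59 and -0.52) and Siglech (-0.49 and -0.40). Of the monocyte genes, Plac8 (-1.25 ± 0.31) and F10 (-0.76 ± 0.18) were called lower against old SIRT1F/F. Without the low arrays 0 of the 6 choroid plexus and 3 of the 6 oligodendrocyte calls against old SIRT1F/F were left. In that fit not all of the endothelial and mural calls against young SIRT1F/F were kept either. Against old SIRT1F/F, Tmem119 was then -0.58, Sall1 -0.50, Siglech -0.41, Plac8 -1.24 and F10 -0.63. The part of these cells in the values of the 10 genes was not tested.

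Set in order of group means, Lyve1 ran 12.06 in TAU/LysM, 11.64 in TAU, 11.15 in old LysM-Cre, 11.11 in both old SIRT1F/F and young LysM-Cre, and 10.97 in young SIRT1F/F. The last 4 means lay within 1 SD of each other (SDs of 0.22 to 0.39), so their order carries nothing. Stab1 ran differently, with young LysM-Cre at 12.94 ± 0.38, young SIRT1F/F at 12.63 ± 0.48, TAU/LysM at 12.62 ± 0.05, old LysM-Cre at 12.37 ± 0.43, old SIRT1F/F at 12.09 ± 0.13 and TAU lowest at 11.93 ± 0.13 (SD; n = 3, and 2 for TAU and TAU/LysM). Neighbours in that order overlapped in every case. For Maf, the SIRT1F/F groups were the top 2, at 8.21 ± 0.22 in young and 8.11 ± 0.13 in old, and the other 4 group means lay between 7.60 and 7.82.

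The contrast between Lyve1 and the other receptors was also read within each array, as the Lyve1 level less that of Stab1 or Mrc1. These pairs were chosen after the values were seen, so the values are a description with no test. The zero of such a difference has no meaning because probes differ in brightness, but it would be equal on all arrays if both transcripts had risen and fallen by the same factor. Lyve1 less Stab1 was -0.59 and -0.52 in TAU/LysM, -0.29 and -0.29 in TAU, down to -1.46 in old LysM-Cre and -1.33 in old SIRT1F/F with a highest old value of -0.68, -1.58, -1.69 and -2.22 in young LysM-Cre, and -1.65, -1.47 and -1.86 in young SIRT1F/F. All 4 Tau arrays lay above all 12 others, and each old genotype lay above its young counterpart without overlap. Lyve1 less Mrc1 gave the same arrangement. It was -1.80 and -1.69 in TAU/LysM and -1.75 and -1.70 in TAU, against -1.99 to -2.45 in the old groups and -2.49 to -2.96 in the young groups. Of the 9 genes Lyve1 can be set against, Stab1 and Mrc1 were the 2 that gave this arrangement. With the other 7 the Tau arrays overlapped the rest. Lyve1 less Cd163 was -0.44 to -0.29 on Tau arrays, -0.79 to -0.31 on old and -1.10 to -0.51 on young arrays. Lyve1 less Folr2 was 0.04 to 0.67 on Tau arrays, 0.32 to 0.94 on old and -0.12 to 0.24 on young arrays, so that the old arrays reached highest. Each old genotype lay above its young counterpart without overlap for 3 of the 9, Mrc1, Stab1 and Folr2. Folr2 less Stab1 was -0.63 and -1.08 in TAU/LysM and -0.80 and -0.96 in TAU, against -1.86 to -1.19 on the old and -2.12 to -1.57 on the young arrays, where old and young overlapped.

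**Figure D3:**
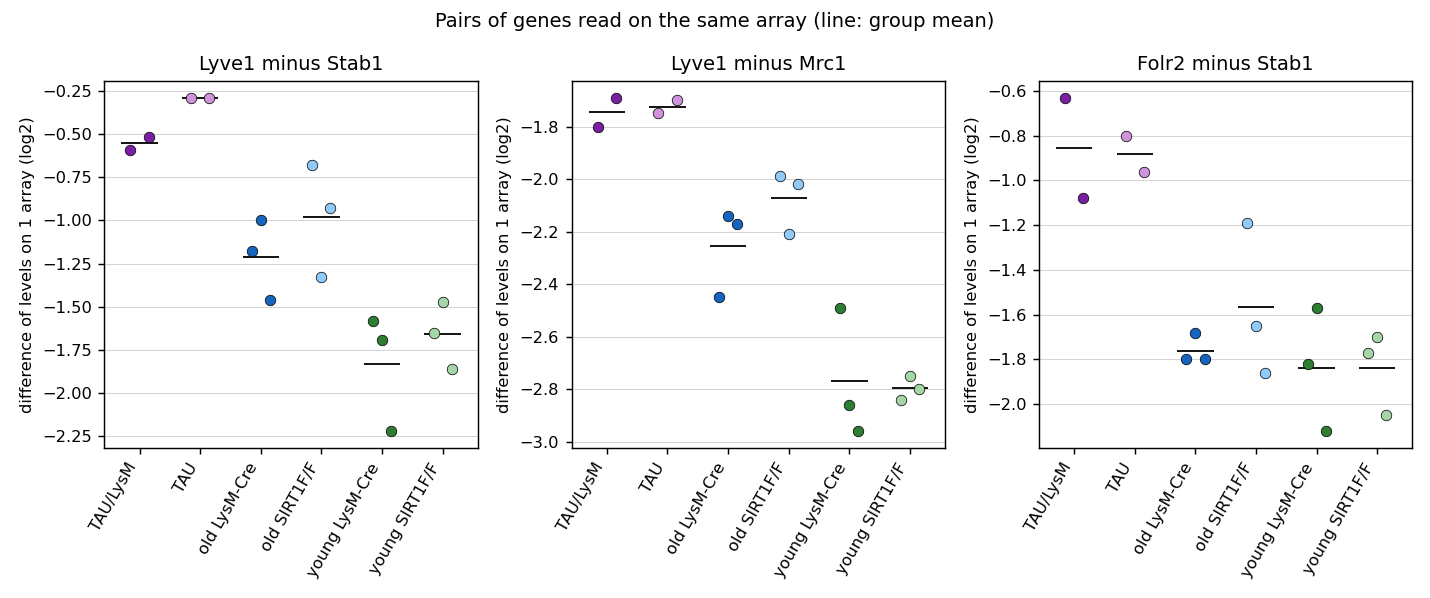
Difference of levels (log2) between pairs of genes read on the same array, by group, for Lyve1 less Stab1, Lyve1 less Mrc1 and Folr2 less Stab1. Points are arrays and lines are group means; the young groups lie lowest in both Lyve1 panels, the Tau groups highest, and the old groups between them.

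Apart from the groups, 9 of the genes moved together from array to array. Over the 36 pairs among them, Pearson r of the levels over 16 arrays was 0.12 to 0.95 with a median of 0.73. After each array's group mean was taken away it was 0.04 to 0.95 with a median of 0.74. Cbr2 with Folr2 gave 0.95 (levels), and Mrc1 with F13a1 gave 0.95 within groups. Lyve1 with Stab1 gave 0.12 over levels and 0.69 within groups. These are descriptions, since the arrays share groups and normalization. Maf ran against the other 9, with r of -0.63 to -0.14 over levels and -0.75 to -0.38 within groups.

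Inside every group but TAU/LysM the spread mostly followed whole arrays. In TAU/LysM, array 1 was the highest of the group for 6 genes and the lowest for 4. Array 1 of young SIRT1F/F was the highest of its group for 9 of the 10 genes and the lowest for Maf, and array 2 was the lowest for 8. Array 2 of young LysM-Cre was the lowest of its group for 9, and array 3 of old LysM-Cre the highest for 7. Array 2 of old SIRT1F/F was the lowest of its group for 7, and array 1 of TAU the lower of its pair for 8. The mean of the 10 genes, each centred on its 16-array mean, was 0.45 and 0.38 on the TAU/LysM arrays, and 0.39, -0.23 and 0.03 on the 3 young SIRT1F/F arrays. The young SIRT1F/F arrays thus spanned much of the range of all 16. Array median intensity did not run with that mean (r = 0.04 over levels, 0.31 within groups).

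**Figure D4:**
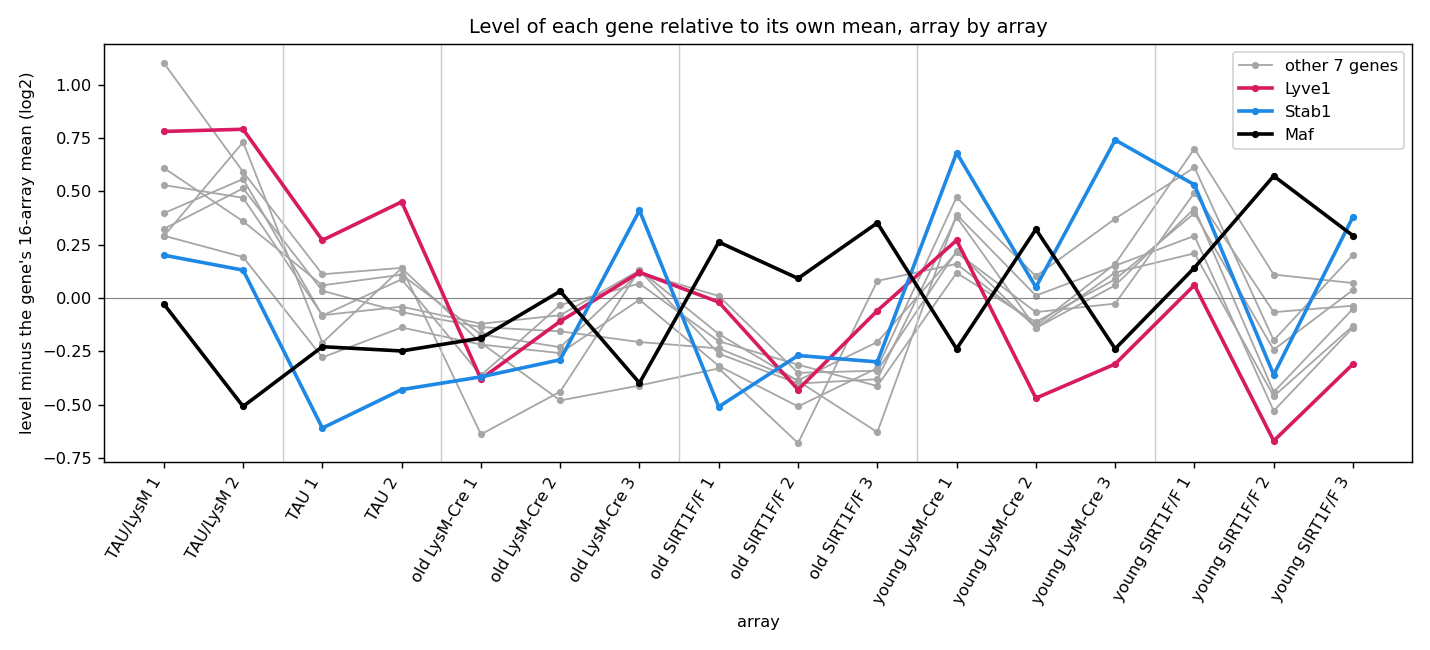
Level of each gene less its own 16-array mean (log2), array by array, with Lyve1, Stab1 and Maf in colour or black and the other 7 genes in grey. The grey lines and Stab1 mostly rise and fall together inside the young groups, and Maf runs opposite to them in young SIRT1F/F 1. In TAU/LysM the grey lines part, with Folr2 lower and Pf4 higher on array 2 than on array 1.

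Genes with the most similar pattern were taken as the 10 with the highest Pearson r to the mean of the members, among 10976 other tested genes over 16 arrays. Over levels these were Clec10a (0.92), Sh3pxd2b (0.92), Siglec1 (0.92), Gas7 (0.90), Snx8 (0.88), Wfdc17 (0.88), Mmp13 (0.88), Ms4a7 (0.88), Bola2 (0.87) and Lss (0.87). Clec10a and Siglec1 are macrophage lectins. Siglec1 read 9.96 and 10.25 in TAU/LysM, against 8.74 and 9.36 in TAU. Within groups the 10 were Trpv4 (0.96), Siglec1 (0.93), Kifc2 (0.93), Ecm1 (0.92), Clec10a (0.91), Grb14 (0.90), Mfap2 (0.90), Clec4a1 (0.89), Agt (0.88) and Dusp11 (0.88). Siglec1 and Clec10a were in both lists.

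Of a wider list of other border macrophage genes 34 were tested. Cd36 and Cd5l were left out because they were never above background. The list's mean ran with that of the 10 genes (r = 0.95 over levels, 0.93 within groups). In TAU/LysM against TAU 1 of the 34 was called higher and 0 lower, with a median of 0.40 beside 0.01 over all genes. That gene was Ccl24, a chemokine for eosinophils, which read 10.30 and 10.38 in TAU/LysM, against 9.63 and 9.46 in TAU (0.80 ± 0.16; limma adjusted p = 0.0242). Averaged over the 3 pairs, Ccl24 rose by 0.70 ± 0.08 in the Cre groups (0.00118) and Axl, a receptor for apoptotic cells, by 0.49 ± 0.11 (0.0489), with 0 of the 34 lower. Without the arrays low in Xist or Eif2s3y Ccl24 differed by 0.84 in TAU/LysM against TAU (0.108) and by 0.62 in the average (0.0994), and Axl by 0.48 (0.311). In neither young nor old samples alone was any of the 34 called for genotype.

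Against young LysM-Cre 8 of the 34 were called higher and 2 lower in TAU/LysM, where 7.27% of all probes were called, and against old LysM-Cre 7 were higher and 0 lower, where 2.26% were. Leaving out the arrays low in Xist or Eif2s3y, 2 of the 10 calls were left against young (Igf1 and Vsig4) and 1 of the 7 against old LysM-Cre (Igf1). Igf1, a growth factor that activated microglia also make, rose by 2.10 ± 0.16 and 2.27 ± 0.16 in these comparisons. It read 11.18 and 11.54 in TAU/LysM, against 8.93 to 9.19 in old LysM-Cre. Vsig4, a complement receptor, rose by 1.70 ± 0.25 against young LysM-Cre and Ednrb by 1.25 ± 0.22 against old. Against young LysM-Cre, Ltc4s, which makes leukotriene C4, fell by 0.50 ± 0.12 (log2), and Hmox1, the enzyme that breaks down haem, fell by 1.41 ± 0.38. In TAU against SIRT1F/F, 6 of the 34 were higher and 1 lower than in young, and 5 higher and 0 lower than in old, where 11.9% and 3.99% of all probes were called. Those higher against both ages were Igf1 (1.43 and 1.57), Axl (0.89 and 0.95), Apoe (0.60 and 0.89), the lipid carrier, and Vsig4 (2.04 and 1.07). Leaving out the low arrays keeps a single old SIRT1F/F array. Against old SIRT1F/F, Igf1 was then 1.47, Axl 0.75, Apoe 0.67 and Vsig4 0.49. The comparison with young SIRT1F/F holds none of those arrays, and these genes' differences there did not change. The spread shared by all groups was estimated anew, however, and not all calls were kept against either age. Igf1, Axl and Apoe are known from disease-associated microglia as well.

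With age, 3 of the 34 fell in SIRT1F/F samples and 0 rose. Clec4n, a C-type lectin (-1.10 ± 0.19; limma adjusted p = 0.0177), Ms4a7 (-0.81 ± 0.15; 0.0194) and Hmox1 (-1.55 ± 0.34; 0.0463) were lower in old. In LysM-Cre samples Clec4n alone fell, by 1.01 on the log2 scale (0.0213). Ms4a7, a membrane protein of border macrophages, read 11.90, 11.80 and 11.87 in old SIRT1F/F, against 13.08, 12.54 and 12.37 in young SIRT1F/F, without overlap. Among 22 transcription factors of macrophages tested, Spic was the factor called with age in both genotypes, at -1.07 ± 0.16 in SIRT1F/F (0.00977) and -1.25 ± 0.16 in LysM-Cre (0.00352). Spic directs red pulp macrophages of the spleen. It read 8.16 and 8.68 in TAU/LysM, against 7.37 and 7.76 in TAU (0.86 ± 0.19; 0.0428), and 7.50 to 7.92 on the 6 old arrays against 8.69 to 9.16 on the 6 young arrays. Without the arrays low in Xist or Eif2s3y these calls were lost and their signs kept. In old against young SIRT1F/F Clec4n was then -0.94 (0.425), Ms4a7 -0.77 (0.465), Hmox1 -2.33 (0.277) and Spic -0.94 (0.29). In LysM-Cre Clec4n was -1.38 (0.294) and Spic -1.05 (0.25), and in TAU/LysM against TAU Spic was 1.12 (0.074).

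Partners of the members by function were followed as well. Of 20 tested genes for scavenger receptors, endocytosis and haem handling, 0 was called in TAU/LysM against TAU (limma; median 0.17, with 4 higher and 0 lower at an unadjusted p under 0.05). Against young LysM-Cre, 3 of these 20 were called higher in TAU/LysM and 2 lower, with a median of 0.02. Clec7a, a receptor for fungal glucans, rose by 2.01 ± 0.16 (limma adjusted p = 1.09e-05), and Axl, a receptor for dying cells, by 1.15 ± 0.19 (0.00379). In TAU against young SIRT1F/F, 2 were called higher, Clec7a at 1.44 ± 0.16 and Axl at 0.89 ± 0.19, and 2 lower, Fcgr1 and Hmox1, the haem oxygenase gene, at -1.58 ± 0.38. Without the low arrays Clec7a was the 1 of the 5 calls left against young LysM-Cre (2.40, limma adjusted p = 0.00755), and Axl was 1.01 (0.287).

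Of 13 tested genes of glucocorticoid and IL-10 signalling, Il10 was called lower in old than in young samples, at -1.82 ± 0.24 in SIRT1F/F (limma adjusted p = 0.00715) and -1.88 ± 0.24 in LysM-Cre (0.00361). In LysM-Cre, 1 other gene was called, Klf9, a glucocorticoid-induced factor, with 1.00 ± 0.22. Averaged over the 3 pairs, 1 of the 13 was called higher in the Cre groups, Il10 with 0.77 ± 0.15 (0.0326). Of 24 tested chemokine, coagulation, reductase and folate partners, 1 was called higher and 1 lower in TAU/LysM against TAU (median -0.02). The higher one was F10, the coagulation factor gene also counted among the monocyte genes above, and the lower one was Folr1, the alpha folate receptor of epithelia, which is also in the choroid plexus list above. It read 8.64 and 7.69 in TAU/LysM, against 10.75 and 10.27 in TAU (-2.35 ± 0.38; limma adjusted p = 0.0078). Without the arrays low in Xist or Eif2s3y Folr1 was still called (-2.82, 0.0262). Il10 was then not called, at -1.81 (0.254) with age in SIRT1F/F, -2.26 (0.173) in LysM-Cre and 0.98 (0.198) in the average, nor were Klf9 (0.63, 0.594) or F10 (1.14, 0.113).

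**Figure D5:**
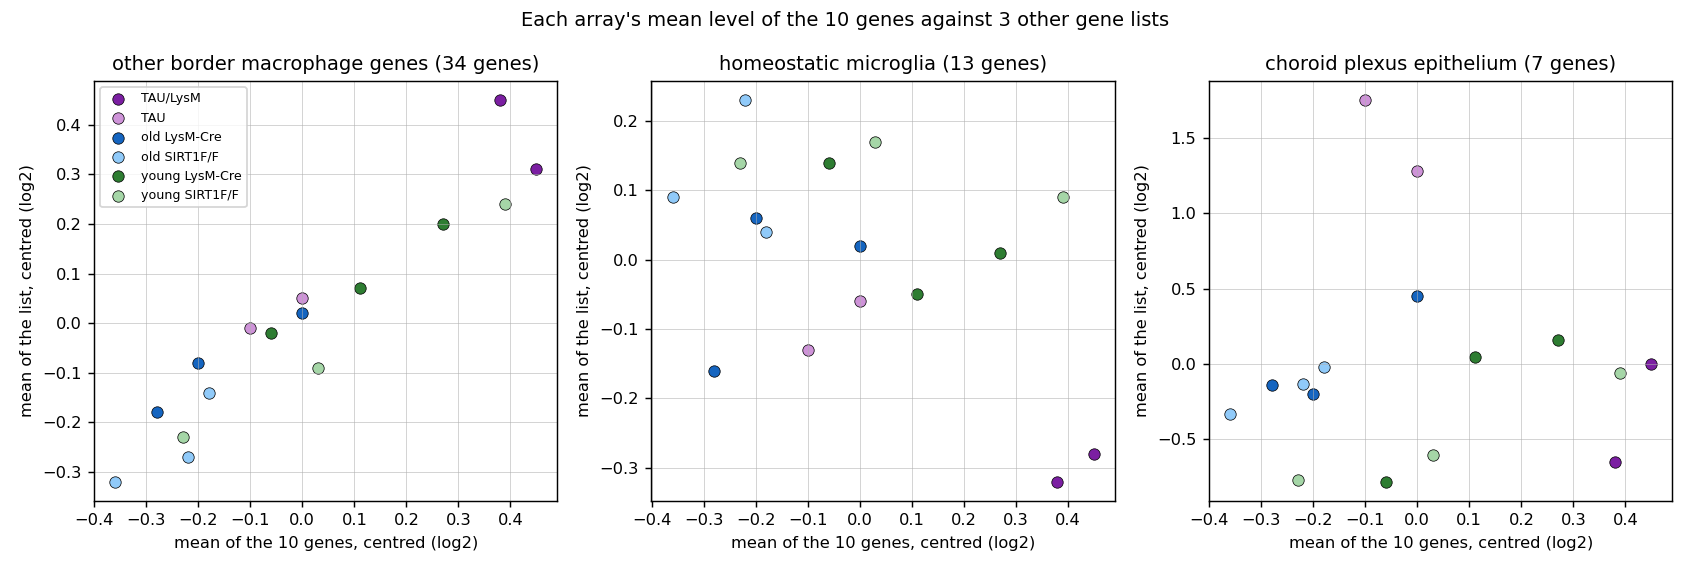
Mean centred level (log2) of the 10 genes on each array (horizontal) against the mean of other border macrophage genes (34), homeostatic microglia genes (13) and choroid plexus genes (7). The first panel forms a line, and in the third the TAU arrays stand alone at the top.

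Lists of cells that share single members were looked at beside these results. Pf4 is a platelet product, and of the platelet list 5 of 11 genes were tested, while Gp1bb, Gp5 and Tubb1 were never above background. Platelet sums were 1047 to 1120 in TAU/LysM and 1319 to 1332 in TAU, against 1785 to 2723 over the other 4 groups. By mean centred level, TAU/LysM (-0.28 to -0.24) and TAU (-0.27 to -0.25) were alike. Pf4 read 12.77 and 13.21 in TAU/LysM, and the part of platelets in it was not tested. In TAU/LysM against young LysM-Cre, Gp9 fell by 1.63 ± 0.18 (log2; limma adjusted p = 0.000243). Gp9 was also called lower in TAU/LysM against old LysM-Cre (-1.46 ± 0.18). In TAU it was called lower against young (-1.07 ± 0.18) and old SIRT1F/F (-1.15 ± 0.18), and Ppbp against old (-0.80 ± 0.20). Without the arrays low in Xist or Eif2s3y these differences were -1.54, -1.07 and -1.05 for Gp9 and -0.57 for Ppbp. For Lyve1, the lymphatic markers Prox1, Flt4, Pdpn and Reln were tested and Ccl21a was never above background. Of these 4, 0 was called in TAU/LysM against TAU or either LysM-Cre group, with medians of -0.04 against TAU, 0.21 against young and -0.13 against old LysM-Cre. Pdpn rose with age in both genotypes (1.11 ± 0.22 and 0.96 ± 0.22) and in TAU against young SIRT1F/F (1.82 ± 0.25). In the fit without the arrays low in Xist or Eif2s3y the calls of Gp9 against young LysM-Cre (-1.55, 0.117) and of Pdpn with age (1.07, 0.449, and 0.71, 0.572) were lost. Neutrophil genes had 0 of 10 called in any comparison (limma), with medians of -0.92 to 0.69, and Itgax was the 1 of 9 dendritic cell and MHC class II genes called when a Tau group was set against a SIRT1F/F or LysM-Cre group, at 2.00 to 2.52.

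Other lists ran with the mean of the 10 genes inside groups, namely choroid plexus (r = 0.76), mural and meningeal cells (0.69), dendritic cell and MHC class II genes (0.64), monocytes (0.61) and oligodendrocytes (0.58), while homeostatic microglia genes did not (-0.09). Over levels these were 0.01, 0.21, 0.76, 0.05, 0.00 and -0.49. Erythrocyte genes set TAU/LysM 1 apart from TAU/LysM 2, with a centred mean of 1.74 against -0.63, where the 10 genes stood at 0.45 and 0.38. The part of these other cells in the values of the 10 genes was not tested.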

How the data were processed

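The authors deposited an intensity table, neither background corrected nor normalized by its values, and a log2 table that equals quantile-normalized log2 intensity to within 5e-09. The scanner software is not given in the sources used here. Here, intensity was corrected with limma's normexp on all probes (offset 16), converted to log2 and made equal in distribution between arrays by quantile normalization (limma 3.58.1, R 4.3.3). No detection p-values were used: a probe was above background where its upper normal tail around the array's mode was under 0.05, and 16344 of 25697 probes passed on at least 2 arrays and were tested. Symbols came from the platform table (23978 probes with 1 symbol, 0 with several, 1719 with none). A gene's value is its probe with the highest mean.

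One limma fit to the 16 arrays, with a mean for each of the 6 groups (residual degrees of freedom 10, prior 3.68), gave 13 contrasts. Calls are Benjamini-Hochberg adjusted p under 0.05 over all tested probes, checked on simulated data. The number of arrays limits the precision. The 10 genes and all lists were chosen with earlier results of these data known. Named list genes are the called ones, at most 4 per list and comparison. Alternatives covered background correction, scaling, filters, variance, array weights, a replicate block, the groups fitted and left-out arrays. The called list genes were also refitted without the arrays low in Xist or Eif2s3y, a step chosen after the data were seen.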

Additional observations from a re-analysis of the deposited data

How the results depend on the processing

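The number of called probes of the 10 genes moved by over 1.5 times under some alternative in 7 of the 13 comparisons, described here, and in none of the other 6. Under median scaling between arrays the count was 1 in TAU/LysM against TAU, 4 in old against young LysM-Cre, 4 in TAU against young SIRT1F/F and 5 in TAU/LysM against old LysM-Cre, where it was 0, 0, 0 and 1. That scaling moved the median of all probes by up to 0.17 and -0.18. It also changed the split of all calls: 195 of 609 higher (main 177 of 279) in old against young LysM-Cre, 877 of 3096 (main 1032 of 1953) in TAU against young SIRT1F/F, 353 of 726 (main 444 of 652) in TAU against old SIRT1F/F, 428 of 1215 (main 566 of 1189) in TAU/LysM against young LysM-Cre and 245 of 303 (main 242 of 370) against old LysM-Cre.

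In TAU/LysM against old LysM-Cre the count was 5 on the deposited log2 values, 2 with a normexp offset of 50, 4 with trended and robust variance, 3 with array weights, and 0 with no filter on dim probes, with only the groups of the comparison or without the arrays low in Xist or Eif2s3y. In TAU/LysM against young LysM-Cre it was 0 in those same last 3 settings. In TAU against young SIRT1F/F array weights gave 2. With 1 array left out at a time, counts ran from 0 to 5 in TAU/LysM against old LysM-Cre (5 without young SIRT1F/F 1), 0 to 1 against young LysM-Cre, 0 to 2 in TAU against young SIRT1F/F, 0 to 2 for the averaged LysM-Cre effect and 0 to 1 in old against young SIRT1F/F. The cause was not tested. Lyve1 against young and Folr2 against old LysM-Cre were each called under 20 of 27 alternatives, and neither changed sign. Where groups of 2 lost an array, the lone array was assumed to vary like the other groups.

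The replicate block left both calls in place (Lyve1 0.98, adjusted p = 0.0272; Folr2 1.18, 0.0304) and changed no other call among the 10 genes. Arrays of the same number correlated at -0.18 to 0.51 (36 pairs) and arrays of different numbers at -0.49 to 0.28, and 12 of 16 arrays correlated best with their own number. The median was 0.05 for arrays of the same number and -0.04 for arrays of different numbers. The labels do not say what the numbers stand for, and whether they mark a shared batch was not tested. A block for the slide was not run because no slides are named in the headers.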
